A study of Mus musculus with 24 samples.

Results

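The genes described here are the core transcription factors of embryonic stem cells and several of their direct targets: Pou5f1, Sox2, Sall4, Dppa2, Dppa4, Utf1, Dppa5a, Fbxo15 and Lin28a. The list was drawn up by name, with earlier results of these data known, and its rule uses no measured difference between groups. A probe set was taken when it was annotated to one of these symbols and to no other gene, and where a gene had more than 1 set, the set with the highest mean over all 24 arrays was used. All 9 genes were measured, out of 19938 genes on the array with a probe set of their own, 7 of them by 1 probe set and Dppa2 and Dppa4 by 2 sets each.

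OCT4, the protein of Pou5f1, and SOX2 bind DNA side by side at enhancers of genes that keep embryonic stem cells pluripotent, and SALL4 is a zinc-finger partner in the same network. The pair activates, among others, Utf1, Fbxo15 and their own genes, and much of the network is silenced once cells commit to a lineage. Retinoic acid drives stem cells out of pluripotency through nuclear receptors, some of which bind the Pou5f1 gene and repress it. PRMT1, whose transcript was lowered in this study, places most of the asymmetric dimethylarginine on histones and other proteins.

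The cells were D3, an established mouse embryonic stem cell line, carrying either a scrambled control sequence (siSCR) or a knockdown of Prmt1 (siPRMT1). According to the study's design, they were grown on gelatin for several passages beforehand to leave feeder cells behind. Total RNA from 4 states of each line was hybridised to arrays: undifferentiated cells, embryoid bodies aggregated without LIF and collected at day 4, and embryoid bodies that received either the vehicle DMSO or all-trans retinoic acid (ATRA, 5 micromol as the labels write it) for 12 h. That made 8 groups of 3 arrays, named as biological replicates in the labels. The labels do not say whether each line is a single clone. Values below are log2 units of the deposited table, a difference is followed by its standard error from limma with 3 arrays in each group, and a gene was called when its adjusted p was under 0.05.

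RefSeq promoter windows matched Pou5f1, Sox2, Utf1 and Lin28a, 4 of the 9 genes. The 250 bases upstream of their start sites are printed beside the ATRA responses, where Sox2 and Utf1 fell in both lines, Lin28a fell in siPRMT1 and Pou5f1 was called in neither. Capitals mark a nuclear receptor half-site (AGGTCA), a GC box (GGGCGG) or the core bound by SOX proteins (CATTGT), each searched on both strands. The table holds 2 windows for Pou5f1, of which the first is printed. On build GRCm38.p6 that window is chr17:35505782-35506031, that of Sox2 is chr3:34649745-34649994, that of Utf1 is chr7:139943606-139943855, all on the plus strand, and that of Lin28a is chr4:134018817-134019066 on the minus strand.
Pou5f1: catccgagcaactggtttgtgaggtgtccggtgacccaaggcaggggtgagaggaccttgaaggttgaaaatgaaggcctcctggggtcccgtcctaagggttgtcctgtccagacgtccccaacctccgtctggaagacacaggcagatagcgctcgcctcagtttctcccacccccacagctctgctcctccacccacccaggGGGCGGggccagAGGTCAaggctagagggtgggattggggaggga
Sox2: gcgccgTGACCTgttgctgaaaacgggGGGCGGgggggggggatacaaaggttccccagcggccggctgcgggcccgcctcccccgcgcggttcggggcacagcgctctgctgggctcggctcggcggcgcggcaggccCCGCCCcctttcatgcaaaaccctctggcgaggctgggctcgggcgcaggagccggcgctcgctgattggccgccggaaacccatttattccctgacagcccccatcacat
Utf1: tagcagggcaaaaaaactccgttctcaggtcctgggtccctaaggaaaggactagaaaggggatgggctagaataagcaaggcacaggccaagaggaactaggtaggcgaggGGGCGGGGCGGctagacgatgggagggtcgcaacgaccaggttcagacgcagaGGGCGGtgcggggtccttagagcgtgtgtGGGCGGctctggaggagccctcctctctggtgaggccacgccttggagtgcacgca
Lin28a: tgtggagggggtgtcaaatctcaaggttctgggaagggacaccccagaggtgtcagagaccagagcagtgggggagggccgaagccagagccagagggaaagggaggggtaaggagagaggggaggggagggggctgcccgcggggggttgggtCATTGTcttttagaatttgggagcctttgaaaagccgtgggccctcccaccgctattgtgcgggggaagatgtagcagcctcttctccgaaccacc
In these letters the nuclear receptor half-site lies at -33 to -28 from the Pou5f1 start, beside a GC box at -45 to -40. The second Pou5f1 window, chr17:35508557-35508806, has neither of these but a SOX core on the reverse strand at -158 to -153. Sox2 holds a half-site on the reverse strand at -244 to -239 and 2 GC boxes. The Utf1 window has 4 GC boxes, of which 2 overlap by 1 base, and Lin28a has a single SOX core at -96 to -91. The half-site occurs in 14% of 32851 mouse promoter windows of the same length, the GC box in 32.7% and the SOX core in 10.7%. The octamer ATGCAAAT, found in 1.6% of windows, is not among the letters of any of these windows. The motifs were chosen with the sequences in view, and a match is a description of letters, not of binding.

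The knockdown was visible in every state. Prmt1 stood at 38.6% of the siSCR level in undifferentiated cells, 64.6% at day 4, 46.2% with DMSO and 36.7% with ATRA. The 6 siSCR arrays of DMSO and ATRA stood apart from the other 18 arrays. On the first principal component, which held 52.2% of the variance, they scored 50.1 to 61.2 against -26.8 to -9.4, and their values had a smaller spread (SD 1.98 to 2.07 against 2.15 to 2.27). The labels name no batch, so a difference in handling and the siSCR line under these treatments cannot be told apart. Comparisons that set these 6 arrays against others (the knockdown with DMSO or ATRA, and vehicle against untreated in siSCR) are therefore given last. The Prmt1 percentages with DMSO and ATRA rest on these 6 arrays too. In siSCR, Prmt1 was higher with DMSO than in untreated day 4 bodies by 0.60 ± 0.061. The lowest value of any of the 9 genes on any array was 10.0 against array medians of 7.47 to 7.67, so these stem cell markers read above the median of every array in every group.

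**Figure D1:**
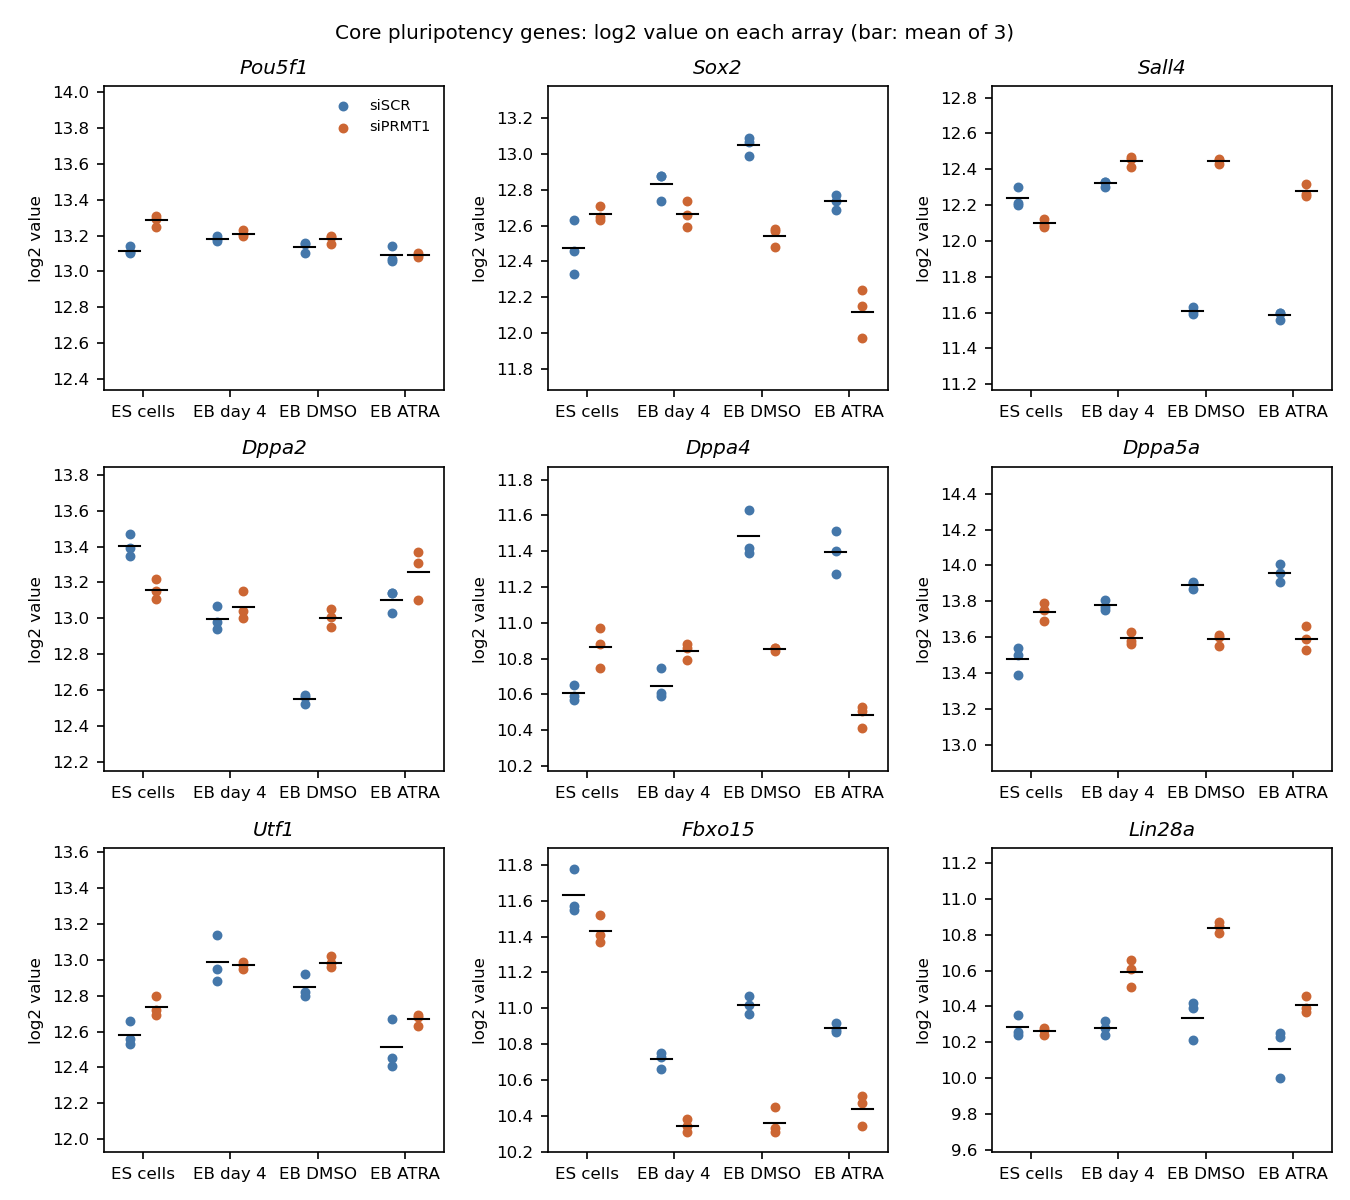
Log2 value of each of the 9 genes on the 24 arrays, 1 panel per gene, with siSCR in blue and siPRMT1 in orange; points are arrays, bars are group means, and each panel has its own vertical scale. Pou5f1 group means lie within 0.2 log2 units, while Fbxo15 is highest in the undifferentiated groups (11.63 and 11.43) and lower in all embryoid bodies.

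Pou5f1 changed little. Its 8 group means covered 0.2 log2 units, the narrowest span of the 9 genes, from 13.09 with ATRA in either line to 13.29 in undifferentiated siPRMT1 cells. By its mean of 13.16 over the 24 arrays Pou5f1 stood at percentile 99.6 of all genes. Whether so bright a signal still follows the amount of RNA was not tested. In undifferentiated cells the siSCR arrays read 13.1, 13.11 and 13.14, and the siPRMT1 arrays 13.25, 13.29 and 13.31. All 3 knockdown arrays lay above all 3 controls, a log2 difference of 0.17 ± 0.041 (limma adjusted p = 0.0057). At day 4 the means were 13.18 ± 0.016 (SD, n = 3) and 13.21 ± 0.013, with a difference of 0.03 and a 95% interval of -0.06 to 0.12. The change on aggregation differed between the lines by -0.14 ± 0.058, not called in limma (adjusted p = 0.0918). In 5 of the 10 alternative settings it stayed uncalled, and in the others it was called (-0.32 to -0.12). After ATRA the siPRMT1 arrays read 13.08, 13.09 and 13.1, below their DMSO arrays at 13.15, 13.19 and 13.2. The difference of -0.09 ± 0.041 was not called (adjusted p = 0.196), although limma with a trend and robust prior or with array weights called it (adjusted p = 0.0315 and 0.00556). In siSCR the ATRA and DMSO arrays overlapped, at -0.05 with an interval of -0.13 to 0.04. Ordered by mean level, the groups from day 4 siSCR down to siPRMT1 with ATRA each overlapped their neighbour, the day 4 groups met at 13.2, and undifferentiated siPRMT1 cells were apart from the rest.

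Sox2, the SRY-related partner of OCT4, moved more. Group means ran from 12.12 in siPRMT1 with ATRA to 13.05 in siSCR with DMSO. Undifferentiated siSCR cells read 12.33, 12.46 and 12.63 and day 4 siSCR bodies 12.74, 12.88 and 12.88. Every day 4 array was above every undifferentiated one, a rise of 0.36 ± 0.073 (adjusted p = 0.000673). In siPRMT1 the undifferentiated arrays read 12.63, 12.65 and 12.71 and the day 4 arrays 12.59, 12.66 and 12.74, which overlapped at a difference of 0.00 (interval -0.15 to 0.15). The 2 courses differed by -0.36 ± 0.104 (interaction, adjusted p = 0.0151). ATRA lowered Sox2 in both lines. From DMSO arrays at 12.99, 13.07 and 13.09, siSCR went to 12.69, 12.74 and 12.77 (-0.32 ± 0.073, adjusted p = 0.00418). From 12.48, 12.57 and 12.58, siPRMT1 went to 11.97, 12.15 and 12.24 (-0.42 ± 0.073, adjusted p = 0.000334). Neither line's ATRA arrays overlapped its DMSO arrays, and the 2 responses differed by -0.11 with an interval of -0.32 to 0.11. The knockdown itself was not called in undifferentiated cells (0.19 ± 0.073, adjusted p = 0.0841) or at day 4 (-0.17 ± 0.073, adjusted p = 0.124).

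Sall4, a zinc-finger factor bound with OCT4 at many sites, rose on aggregation in the knockdown line. Its undifferentiated siPRMT1 arrays read 12.08, 12.09 and 12.12 and the day 4 arrays 12.41, 12.46 and 12.47. The groups did not overlap, and the rise was 0.35 ± 0.042 (adjusted p = 1.2e-06). In siSCR the undifferentiated arrays at 12.2, 12.21 and 12.3 and the day 4 arrays at 12.3, 12.33 and 12.33 met at 12.3, for a difference of 0.08 (interval -0.00 to 0.17). The knockdown difference thus had opposite signs, at -0.14 ± 0.042 in undifferentiated cells (adjusted p = 0.0257) and 0.12 ± 0.042 at day 4 (adjusted p = 0.0464), with an interaction of 0.26 ± 0.060 (adjusted p = 0.00275). ATRA lowered Sall4 in siPRMT1 from 12.43, 12.45 and 12.46 to 12.25, 12.26 and 12.32 (-0.17 ± 0.042, adjusted p = 0.00976). In siSCR the difference was -0.02 (interval -0.11 to 0.07), and the 2 responses differed by -0.15 (interval -0.27 to -0.02, adjusted p not under 0.05).

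Dppa2 and Dppa4 encode SAP-domain proteins that form a pair, bind promoters of developmental genes and switch on genes of the 2-cell-like state. Dppa2 was highest in undifferentiated siSCR cells, at 13.35, 13.39 and 13.47, against 13.11, 13.15 and 13.22 in siPRMT1. No array of one line entered the range of the other, and the difference was -0.25 ± 0.065 (adjusted p = 0.0102). Day 4 siSCR bodies read 12.94, 12.98 and 13.07, a change of -0.41 ± 0.065 (adjusted p = 4.72e-05), whereas siPRMT1 gave -0.10 (interval -0.23 to 0.04), for an interaction of 0.31 ± 0.092 (adjusted p = 0.0172). Dppa2 was the one gene of the 9 called higher with ATRA, and it was so in both lines. The siSCR arrays went from 12.52, 12.56 and 12.57 to 13.03, 13.14 and 13.14 (0.55 ± 0.065, adjusted p = 3.79e-06). The siPRMT1 arrays went from 12.95, 13.01 and 13.05 to 13.1, 13.31 and 13.37 (0.26 ± 0.065, adjusted p = 0.0107). In each line the ATRA arrays were all above the DMSO arrays.

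The second Dppa2 probe set gave larger or different values in part of these comparisons. Its knockdown difference in undifferentiated cells was -0.71 ± 0.101 (adjusted p = 3.34e-05) and its ATRA responses were 0.39 and 0.33, in the same directions. On aggregation in siPRMT1, however, it rose by 0.30 ± 0.101 (adjusted p = 0.0199) where the brighter set gave -0.10, and its interaction was 0.92 ± 0.143 (adjusted p = 6.93e-05). For Dppa2 and Dppa4 alike, the set used was picked by brightness alone. Where in the genome each set lies, and whether any also reads a related gene copy, was not tested.

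Dppa4 went the other way from Dppa2 in undifferentiated cells. The siSCR arrays read 10.57, 10.59 and 10.65 and the siPRMT1 arrays 10.75, 10.88 and 10.97. All knockdown arrays were higher, by 0.26 ± 0.074 (adjusted p = 0.0165), while the second Dppa4 set gave 0.22 ± 0.120 and was not called (adjusted p = 0.247). Aggregation left Dppa4 within 0.04 (interval -0.11 to 0.20) in siSCR and -0.02 (interval -0.18 to 0.13) in siPRMT1. With ATRA, siPRMT1 went from 10.84, 10.86 and 10.86 to 10.41, 10.51 and 10.53 (-0.37 ± 0.074, adjusted p = 0.00152), and the second set gave -0.53 ± 0.120 (adjusted p = 0.00449). In siSCR the DMSO and ATRA arrays overlapped at -0.09 (interval -0.24 to 0.07). Over the 8 group means the correlation of Dppa2 with Dppa4 was -0.71, and -0.57 over the 6 groups without the siSCR arrays that stood apart, given as a description of groups that share arrays of one platform.

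Utf1, a chromatin-bound protein and direct OCT4 and SOX2 target, rose on aggregation and fell with ATRA in both lines, although its rise in siPRMT1 was not called with arrays scaled to one SD. Undifferentiated siSCR arrays at 12.53, 12.56 and 12.66 were all below day 4 arrays at 12.88, 12.95 and 13.14 (0.41 ± 0.069, adjusted p = 9.53e-05). In siPRMT1 the arrays went from 12.69, 12.72 and 12.8 to 12.95, 12.97 and 12.99 (0.23 ± 0.069, adjusted p = 0.0105). These ranges were also apart, and the 2 rises differed by -0.18 (interval -0.38 to 0.03). ATRA took siSCR from 12.8, 12.82 and 12.92 to 12.41, 12.45 and 12.67 (-0.33 ± 0.069, adjusted p = 0.00173). It took siPRMT1 from 12.96, 12.98 and 13.02 to 12.63, 12.68 and 12.69 (-0.32 ± 0.069, adjusted p = 0.00322). The difference between those responses was 0.02, with an interval of -0.19 to 0.22. The knockdown difference was 0.16 ± 0.069 in undifferentiated cells (adjusted p = 0.133) and -0.02 at day 4 (interval -0.16 to 0.13).

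Dppa5a encodes a small RNA-binding protein with a KH domain that marks early embryo and stem cells. Its undifferentiated siSCR arrays read 13.39, 13.5 and 13.54, the lowest of the 8 groups, and the siPRMT1 arrays 13.69, 13.75 and 13.79. The ranges were apart, and the difference was 0.27 ± 0.051 (adjusted p = 0.000772). At day 4 the order was the opposite, with siSCR at 13.75, 13.77 and 13.81 and siPRMT1 at 13.56, 13.58 and 13.63 (-0.18 ± 0.051, adjusted p = 0.0148). Aggregation raised Dppa5a in siSCR by 0.30 ± 0.051 (adjusted p = 9.33e-05) and lowered it in siPRMT1 (-0.15 ± 0.051, adjusted p = 0.0252). The interaction, -0.45 ± 0.072 (adjusted p = 0.000103), was the largest in size over the 9 probe sets used. ATRA differences were 0.07 (interval -0.04 to 0.17) in siSCR and 0.00 (interval -0.10 to 0.11) in siPRMT1.

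Fbxo15, an F-box protein gene whose promoter is a common reporter of reprogramming, had the widest span of group means, 1.29 log2 units. Undifferentiated siSCR arrays read 11.55, 11.57 and 11.78 and day 4 siSCR arrays 10.66, 10.73 and 10.75. In siPRMT1 the undifferentiated arrays read 11.37, 11.41 and 11.52 and the day 4 arrays 10.31, 10.34 and 10.38. Within each line the states were far apart: Fbxo15 fell to 53% of its undifferentiated level in siSCR (-0.92 ± 0.064, adjusted p = 3.95e-10) and to 47% in siPRMT1 (-1.09 ± 0.064, adjusted p = 2.15e-11). The 2 falls differed by -0.17 (interval -0.36 to 0.02). The knockdown arrays lay below the controls in both states, at -0.20 ± 0.064 in undifferentiated cells (adjusted p = 0.0325) and -0.37 ± 0.064 at day 4 (adjusted p = 0.000261). ATRA differences were -0.13 (interval -0.26 to 0.00) in siSCR and 0.08 (interval -0.06 to 0.21) in siPRMT1. In whole cultures such as these, fewer cells of a type and less RNA per cell cannot be told apart.

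Genes of fibroblasts and feeder cells fell in the same comparisons as Fbxo15 on aggregation. Of 11 such genes, 9 fell in siSCR, where 13.7% of all genes fell, and 10 fell in siPRMT1, where 18.4% did. In undifferentiated cells 8 were lower in siPRMT1, against 11.2% of all genes. Their mean level was 9.26 to 9.3 on undifferentiated siSCR arrays, 8.8 to 8.87 on undifferentiated siPRMT1 arrays, 7.96 to 8.13 on day 4 siSCR arrays and 7.75 to 7.77 on day 4 siPRMT1 arrays. With vehicle against untreated in siSCR, which uses arrays that stood apart, Fbxo15 rose by 0.30 ± 0.064. Of the 11 genes, 3 were higher and 5 lower there (all genes: 30.8% and 30.3%). Their median was -0.21, and their mean level was 7.78 to 7.91 on the siSCR arrays with DMSO. The part of these cells in the Fbxo15 result was not tested.

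Lin28a encodes the RNA-binding protein that blocks maturation of let-7 microRNAs. In undifferentiated cells the lines overlapped, with siSCR at 10.24, 10.26 and 10.35 and siPRMT1 at 10.24, 10.27 and 10.28 (-0.03, interval -0.17 to 0.11). At day 4 siSCR read 10.24, 10.28 and 10.32 and siPRMT1 10.51, 10.61 and 10.66. All 3 knockdown arrays were higher, by 0.32 ± 0.067 (adjusted p = 0.00193). Aggregation raised Lin28a in siPRMT1 by 0.33 ± 0.067 (adjusted p = 0.000385) and gave -0.01 (interval -0.15 to 0.13) in siSCR, for an interaction of 0.34 ± 0.095 (adjusted p = 0.0112). ATRA took siPRMT1 from 10.81, 10.85 and 10.87 to 10.37, 10.39 and 10.46 (-0.43 ± 0.067, adjusted p = 9.16e-05). In siSCR the arrays overlapped and the difference of -0.18 ± 0.067 was not called (adjusted p = 0.0609). The 2 responses differed by -0.25 (interval -0.45 to -0.06, adjusted p = 0.156).

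The order of the groups differed from gene to gene. Sox2 was highest in siSCR with DMSO and lowest in siPRMT1 with ATRA, both apart from their neighbours, and undifferentiated siSCR cells, second from the bottom, overlapped siPRMT1 with DMSO. Sall4 was lowest in the siSCR groups with DMSO and ATRA, which overlapped, and highest in siPRMT1 at day 4 and with DMSO, which also overlapped. For Dppa2 each group overlapped the next except siSCR with DMSO, the lowest at 12.55. Dppa4 was highest in siSCR with DMSO and ATRA, overlapping at 11.48 and 11.39, and lowest in siPRMT1 with ATRA at 10.48, apart from the rest.

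Dppa5a was highest in siSCR with ATRA and then with DMSO, which met at 13.91, and its 3 groups of siPRMT1 embryoid bodies overlapped at 13.59. Utf1 was highest in the day 4 groups and in siPRMT1 with DMSO, which overlapped, and lowest in siSCR with ATRA. The Fbxo15 groups from undifferentiated siSCR down to day 4 siSCR were each apart from the next, and its siPRMT1 embryoid bodies overlapped at the bottom, from 10.34 to 10.44. For Lin28a, siPRMT1 with DMSO (10.84) and at day 4 (10.59) were apart from the rest, and the remaining 6 groups overlapped in turn from 10.41 to 10.16.

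**Figure D2:**
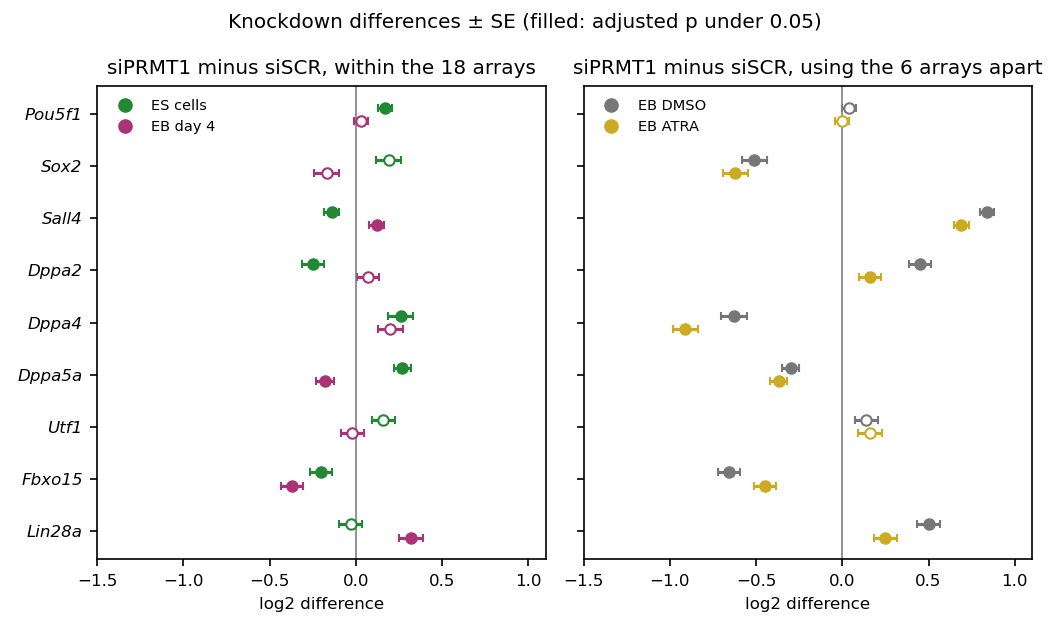
Log2 difference of siPRMT1 from siSCR, with its standard error, for the probe set used of each of the 9 genes. Filled points have an adjusted p under 0.05. The left panel shows undifferentiated cells and day 4 embryoid bodies, where differences stay between -0.37 and 0.32; the right panel shows embryoid bodies with DMSO or ATRA, which rest on the 6 siSCR arrays that stood apart, and where they reach from -0.91 to 0.84.

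The first question of the design is what loss of Prmt1 does before differentiation. In undifferentiated cells 6 of the 9 genes were called, against 18.8% of all genes (7.63% higher and 11.2% lower): Pou5f1, Dppa4 and Dppa5a were higher and Sall4, Dppa2 and Fbxo15 lower. Their sizes were not extreme, since 59.5% to 84.1% of all genes changed less than each of these 6. Standard errors of the 9 were 0.041 to 0.074, against a median of 0.0932 over all genes, so smaller differences could be called. The median difference over the 9 was 0.16, against 0.01 over all genes, and no called difference of the probe sets used exceeded 0.27 in size. The second Dppa2 set gave -0.71 ± 0.101 (limma adjusted p = 3.34e-05), and the second Dppa4 set 0.22 ± 0.120, not called (limma adjusted p = 0.247). With each array centred on its median the split was 5 higher and 0 lower in place of 3 and 3. Of all genes called, 58.8% were then higher, against 40.6% in the main analysis. Sall4, Dppa2 and Fbxo15 were no longer called under that centring (-0.09, -0.19 and -0.15), and Sox2 and Utf1 were (0.24 and 0.21). With only the arrays of these 2 groups in the fit, Pou5f1 (adjusted p = 0.0659), Sall4 and Fbxo15 were not called. Leaving out 1 array ended the calls of Sall4 (siSCR replicate 2 or siPRMT1 replicate 1 or 2, -0.13 to -0.11), Dppa2 (siSCR replicate 1, -0.21), Dppa4 (siSCR replicate 1 or 2 or siPRMT1 replicate 1 or 3, 0.21 to 0.25) and Fbxo15 (siSCR replicate 1 or siPRMT1 replicate 2 or 3, -0.19 to -0.13), with adjusted p from 0.0507 to 0.214.

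At day 4 the knockdown was called for 4 of the 9, with 18.4% of all genes called (11.4% higher and 7.01% lower): Sall4 and Lin28a were higher and Dppa5a and Fbxo15 lower. The median over the 9 was 0.03, against -0.02 over all genes. Fbxo15 and Lin28a passed under each of the 10 alternative settings and without each array in turn. Sall4 was lost without any single array other than siPRMT1 replicate 3 (0.11 to 0.13, adjusted p 0.0732 to 0.148), and it kept its call in 5 of the 10 settings, with 0.04 as the lowest value. Dppa5a was lost after quantile normalization (-0.15) and without siSCR replicate 3 or siPRMT1 replicate 2 or 3 (-0.18 to -0.17, limma adjusted p 0.0511 to 0.0652). After quantile normalization, which called Sox2 lower, the split was 1 higher and 2 lower. Of all genes called, 51.2% were then higher, against 61.9% in the main analysis. Sox2 was called lower under 4 of the 10 settings (-0.25 to -0.17), and Dppa4 higher under 4 (0.19 to 0.20) and without siSCR replicate 1 (0.25, adjusted p = 0.0415).

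**Figure D3:**
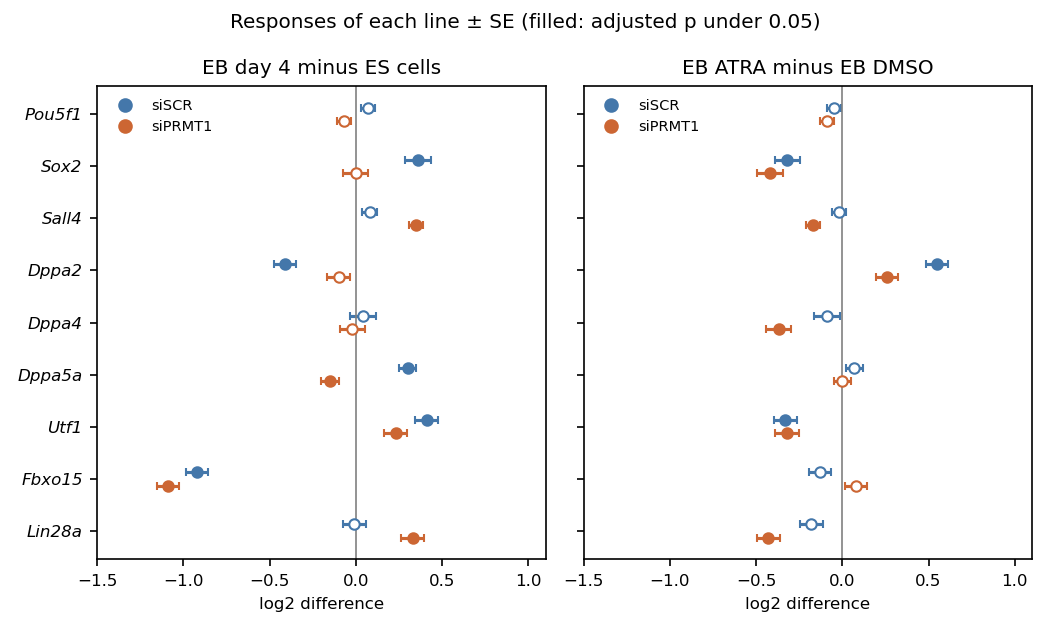
Log2 difference with its standard error for embryoid body formation (day 4 against undifferentiated, left) and the 12 h ATRA response (ATRA against DMSO, right) in each line; filled points have an adjusted p under 0.05. Fbxo15 falls on aggregation by 0.92 in siSCR and 1.09 in siPRMT1, Dppa5a moves in opposite directions in the 2 lines, and Sox2 and Utf1 fall with ATRA in both while Dppa2 rises.

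Aggregation for 4 days did not lower the set as a whole. In siSCR, 3 of the 9 rose (Sox2, Dppa5a and Utf1) and 2 fell (Dppa2 and Fbxo15), with 28.2% of all genes called (14.5% higher and 13.7% lower). In siPRMT1, 3 rose (Sall4, Utf1 and Lin28a) and 2 fell (Dppa5a and Fbxo15), with 41.4% called (23.0% higher and 18.4% lower). Pou5f1 and Dppa4 were called in neither line. By its second probe set Dppa2 rose in siPRMT1 (0.30 ± 0.101, limma adjusted p = 0.0199). Calls of the siSCR course remained without each array in turn, while the fall of Dppa5a in siPRMT1 was lost without undifferentiated replicate 1 or 2 or day 4 replicate 2 or 3 (-0.14 to -0.12, adjusted p 0.0612 to 0.101), after quantile normalization (-0.10, adjusted p = 0.176) and with only the arrays compared (adjusted p = 0.0558). Median centring, which also called Pou5f1 and Sall4 higher, gave a split of 5 higher and 2 lower in siSCR. Of all genes called there, 66.1% were then higher, against 51.3% in the main analysis. Scaling arrays to one SD ended the call of Utf1 in siPRMT1 (0.08, limma adjusted p = 0.431) and called Pou5f1 and Dppa2 lower, for 2 higher and 4 lower. Of all genes called in siPRMT1, 50.2% were then higher, against 55.5% in the main analysis.

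The course of aggregation differed between the lines for 5 of the 9 genes, with 23.8% of all genes called (15.0% higher and 8.83% lower). It was more positive in siPRMT1 for Sall4, Dppa2 and Lin28a and more negative for Sox2 and Dppa5a. Prmt1 itself rose on aggregation in siPRMT1 (0.63 ± 0.061), with an interaction of 0.74 ± 0.087. The depth of the knockdown thus also differed between these states, and its part in the 5 results was not tested. Sox2 and Dppa5a were called under all 10 alternative settings. With arrays scaled to one SD, Sall4, Dppa2 and Lin28a were not called (0.10, 0.13 and 0.22), and Pou5f1, Utf1 and Fbxo15 were called lower. The split became 0 higher and 5 lower, against 2 and 3 after median centring. Of all genes called, 41.6% were higher with that scaling and 48.6% after median centring, against 63% in the main analysis. Dppa2 was also lost without undifferentiated siSCR replicate 1 (0.28, adjusted p = 0.0504) or day 4 siPRMT1 replicate 3 (0.27, adjusted p = 0.0523).

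The ATRA comparison asks which genes respond within 12 h and whether Prmt1 loss alters that. In siSCR Sox2 and Utf1 fell and Dppa2 rose, 3 of the 9, with 23.4% of all genes called (11.2% higher and 12.2% lower). In siPRMT1 Sox2, Sall4, Dppa4, Utf1 and Lin28a fell and Dppa2 rose, 6 of the 9, with 12.0% called (6.05% higher and 5.94% lower). The response was not shown to differ between the lines: 0 of the 9 had a called interaction in limma (3.24% of all genes, 1.92% higher and 1.32% lower), although 5 had an unadjusted p under 0.05 and the smallest adjusted p was 0.0849, for Dppa2 at -0.30 ± 0.092, where its second probe set gave -0.06 ± 0.143 (adjusted p = 0.892). The siSCR falls of Sox2 and Utf1 were not called when only the arrays compared entered the fit (limma adjusted p = 0.088 and 0.12). With median-centred arrays the splits were 1 higher and 4 lower in siSCR and 0 and 5 in siPRMT1. Of all genes called, 27.4% were then higher in siSCR and 35.1% in siPRMT1, against 47.8% and 50.5% in the main analysis. The rise of Dppa2 in siPRMT1 was lost without DMSO replicate 2 or ATRA replicate 1 or 2 (0.20 to 0.23, adjusted p 0.0577 to 0.0818), and Lin28a was called in siSCR without DMSO replicate 2 or ATRA replicate 1 or 3 (-0.24 to -0.21).

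With DMSO the knockdown was called for 7 of the 9 genes, where 65.9% of all genes were called (31.3% higher and 34.6% lower). With ATRA it was called for 7, where 70.1% of all genes were called (32.2% higher and 38.0% lower), so both shares are near the background. Sall4 had the largest rise, from siSCR arrays at 11.59, 11.61 and 11.63 to siPRMT1 arrays at 12.43, 12.45 and 12.46 with DMSO (0.84 ± 0.042, adjusted p = 7.12e-13), and 0.69 ± 0.042 with ATRA. Dppa4 had the largest fall with ATRA, from 11.27, 11.4 and 11.51 to 10.41, 10.51 and 10.53 (-0.91 ± 0.074, adjusted p = 9.67e-10), and -0.63 ± 0.074 with DMSO. The ranges of both genes were apart in these comparisons. Both differences run against those of undifferentiated cells, where Sall4 was lower and Dppa4 higher in siPRMT1. Sox2 (-0.51 and -0.62), Dppa5a (-0.30 and -0.37) and Fbxo15 (-0.66 and -0.45) were lower with DMSO and with ATRA, while Lin28a was higher by 0.50 and 0.25. Dppa2 was higher by 0.45 and 0.16 but turned to -0.06 and -0.49 with arrays scaled to one SD, where Lin28a with ATRA turned to -0.06 as well. The second Dppa2 probe set gave 0.91 ± 0.101 and 0.86 ± 0.101. Pou5f1 gave 0.04 and -0.00 and was not called, yet under that scaling it was called lower, at -0.51 and -0.64. Utf1 likewise gave 0.14 and 0.16, not called, and was called lower under that scaling, at -0.39 and -0.42. The splits then were 2 higher and 6 lower with DMSO and 1 and 7 with ATRA, in place of 3 and 4 in each. Of all genes called, 36.9% were then higher with DMSO and 38.3% with ATRA, against 47.5% and 45.9% in the main analysis. Without siSCR replicate 3 or siPRMT1 replicate 1 or 2, Dppa2 with ATRA was not called (0.10 to 0.13), and without siSCR replicate 3 Utf1 was (0.24).

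Vehicle-treated against untreated bodies serves as the background for the ATRA comparison. In siPRMT1, 0 of the 9 genes were called by limma, with 0.461% of all genes called (0.306% higher and 0.155% lower), and 1 gene had an unadjusted p under 0.05, Lin28a at 0.25 ± 0.067 (adjusted p = 0.145). In siSCR 5 of 9 were called, with 61.1% of all genes called (30.8% higher and 30.3% lower). Sall4 (-0.71 ± 0.042) and Dppa2 (-0.45 ± 0.065) were lower, and Dppa4 (0.83 ± 0.074), Fbxo15 (0.30 ± 0.064) and Sox2 (0.22 ± 0.073) were higher. With arrays scaled to one SD the split was 7 higher and 1 lower. Of all genes called, 63.2% were then higher, against 50.4% in the main analysis. Dppa2 stood at 0.01 under that scaling, and Pou5f1 and Utf1 went from -0.05 and -0.14 to 0.45 and 0.34, both called. Sox2 was not called without untreated replicate 2 (0.17, adjusted p = 0.0733), and Utf1 was without untreated replicate 1 (-0.20).

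**Figure D4:**
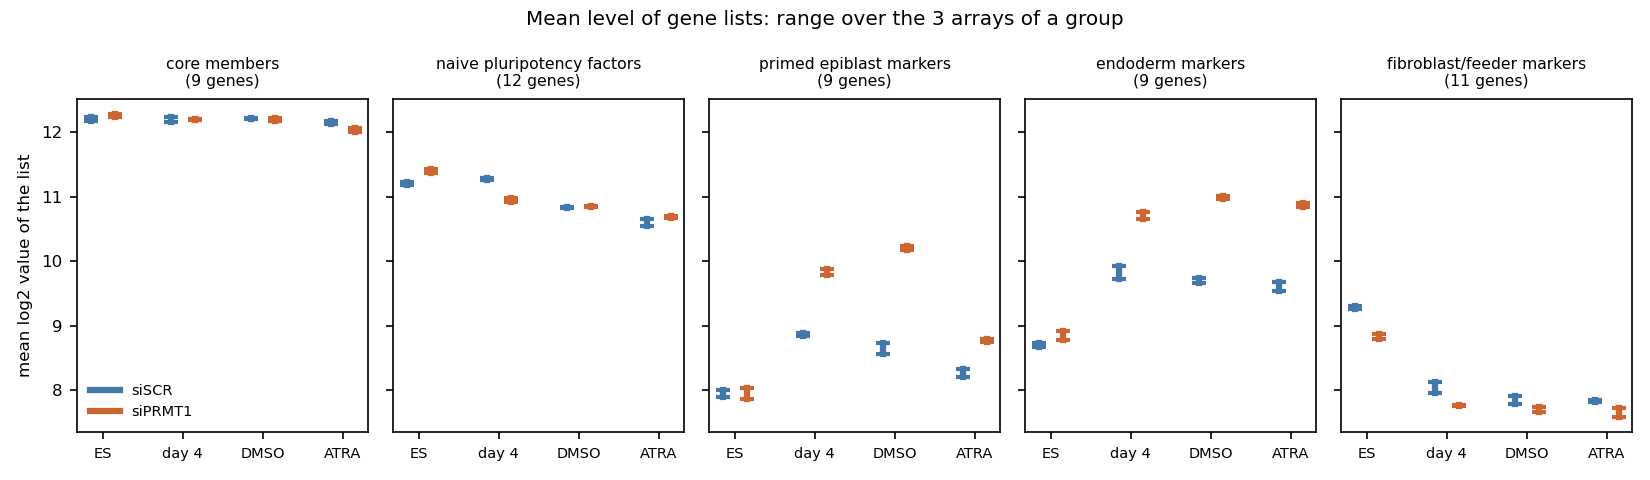
Range over the 3 arrays of a group of the mean log2 value of 5 gene lists, siSCR in blue and siPRMT1 in orange. The mean of the 9 core genes lies between 12.0 and 12.28 in all groups, while primed epiblast and endoderm markers are higher in siPRMT1 embryoid bodies and fibroblast and feeder markers fall from undifferentiated cells to embryoid bodies.

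Other genes of the OCT4 and SOX2 network were followed in lists. Of 21 measured partners and targets, 6 were higher and 3 lower in undifferentiated siPRMT1 cells (all genes: 7.63% and 11.2%), including the signalling genes Lefty1 (-0.54 ± 0.073), an inhibitor of Nodal, and Fgf4 (0.42 ± 0.077), a classic target of the pair. At day 4, 3 were higher and 3 lower (all genes: 11.4% and 7.01%). Upp1 (0.48 ± 0.059) and Foxd3 (0.33 ± 0.106) were among the higher and the orphan receptor gene Esrrb (-0.26 ± 0.048) among the lower. On aggregation 8 rose and 3 fell in siSCR (all genes: 14.5% and 13.7%), and 9 rose and 5 fell in siPRMT1 (23.0% and 18.4%), where Gdf3, a ligand of the Nodal pathway, rose by 0.99 ± 0.118. With ATRA 9 fell in each line, where 12.2% of all genes fell in siSCR and 5.94% in siPRMT1, while 4 rose in siSCR and 3 in siPRMT1 (11.2% and 6.05%). Lefty1 rose in both (1.26 ± 0.073 and 1.14 ± 0.073). Zfp42, the stem cell marker also called Rex1, fell in siSCR (-0.52 ± 0.054), and Foxd3 fell in siPRMT1 (-1.79 ± 0.106). The list median under ATRA was -0.13 in each line, against 0.03 over all genes.

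Naive pluripotency factors, which support the ground state through LIF and KLF proteins, were counted in the same way. Of 12, 5 were higher and 1 lower in undifferentiated siPRMT1 cells (all genes: 7.63% and 11.2%), led by Klf2 (0.71 ± 0.067) and Klf4 (0.55 ± 0.121). At day 4, 0 were higher and 6 lower (all genes: 11.4% and 7.01%), led by the STAT3 feedback gene Socs3 (-0.97 ± 0.066) and by Tcl1 (-0.79 ± 0.081). Aggregation in siPRMT1 lowered 8 and raised 2 (all genes: 18.4% and 23.0%), with Klf4 at -1.32 ± 0.121. In siSCR 6 were higher and 3 lower (14.5% and 13.7%).

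A list of 6 held nuclear receptors and other genes linked to the silencing of Pou5f1. In undifferentiated siPRMT1 cells 3 were lower (all genes: 11.2%), the orphan receptors Nr2f2 (-0.72 ± 0.088) and Nr2f1 (-0.71 ± 0.124) and the retinoic acid receptor gene Rarb (-0.40 ± 0.079). With ATRA 3 rose and 0 fell in siSCR (all genes: 11.2% and 12.2%), and 2 rose and 0 fell in siPRMT1 (6.05% and 5.94%). ATRA raised Rarb in siSCR (1.13 ± 0.079) and in siPRMT1 (2.35 ± 0.079). It raised Nr6a1, the germ cell nuclear factor that represses Pou5f1, by 0.76 ± 0.065 and 0.65 ± 0.065. Pou5f1 was called in neither line at the same 12 h.

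Of 9 listed 2-cell-like genes switched on by DPPA2 and DPPA4, 4 were measured, while Duxf3, Tcstv1, Zscan4c, Zscan4d and Zscan4f were not. The measured 4 were all lower in undifferentiated siPRMT1 cells (all genes: 11.2%), led by Zfp352 (-1.69 ± 0.091) and Usp17la (-1.48 ± 0.189). All 4 fell on aggregation in both lines (all genes: 13.7% in siSCR and 18.4% in siPRMT1), where Zfp352 changed by -2.98 ± 0.091 and -1.26 ± 0.091. Usp17la and Usp17lc belong to a multigene family, and whether their probes are shared was not tested, so they are uncertain as separate genes. Dppa2 was lower and Dppa4 higher in the same undifferentiated comparison.

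Of 9 measured genes around LIN28 and let-7, which includes the let-7 targets Hmga2 and Igf2bp1, 2 were higher and 3 lower in undifferentiated siPRMT1 cells (all genes: 7.63% and 11.2%). At day 4, 2 were higher and 2 lower (all genes: 11.4% and 7.01%). Nr6a1 (0.31 ± 0.065) and Igf2bp1 (0.24 ± 0.044) were higher and Hmga2 lower (-0.27 ± 0.078), beside the rise of Lin28a. With ATRA 1 rose and 2 fell in siSCR (all genes: 11.2% and 12.2%), where Nr6a1 rose (0.76 ± 0.065) and Hmga2 fell (-0.73 ± 0.078). In siPRMT1 1 rose and 1 fell (6.05% and 5.94%). The one that fell was Trim71, a let-7 target that acts with LIN28 in early embryos (-0.28 ± 0.079).

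Relatives of the 9 genes by family numbered 10 measured. In undifferentiated siPRMT1 cells 2 were higher and 2 lower (all genes: 7.63% and 11.2%), and at day 4, 3 were higher and 2 lower (11.4% and 7.01%). Sall2 was lower in undifferentiated siPRMT1 cells (-0.35 ± 0.115) and higher at day 4 (1.13 ± 0.115), and Sox15 was higher (0.50 ± 0.075) and then lower (-0.53 ± 0.075). With ATRA 0 rose and 2 fell in siSCR (all genes: 11.2% and 12.2%), and 0 rose and 3 fell in siPRMT1 (6.05% and 5.94%). Sall1 fell in both (-0.25 ± 0.055 in siSCR and -0.59 ± 0.055 in siPRMT1).

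Markers of other cell types changed with the same comparisons. At day 4, 8 of 9 primed epiblast markers and 9 of 9 endoderm markers were higher in siPRMT1, where 11.4% of all genes were, led by Cer1 (1.88 ± 0.184), Lef1 (1.71 ± 0.059), Apoa1 (1.70 ± 0.082) and Ttr (1.33 ± 0.115). The mean of the primed markers was 8.84 to 8.89 on siSCR and 9.79 to 9.88 on siPRMT1 day 4 arrays, and that of the endoderm markers 9.72 to 9.93 and 10.66 to 10.76. ATRA lowered 8 primed markers in siPRMT1 (all genes: 5.94%) and 4 in siSCR (12.2%), and Otx2 changed by -2.69 ± 0.115 and -2.20 ± 0.115. Mesoderm, neural and trophectoderm lists of 6 measured genes each had at most 2 called in the undifferentiated (all genes: 18.8%) or day 4 (18.4%) knockdown comparison. The part of any of these cell types in the differences of the 9 genes was not tested.

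Among 4183 genes whose group means span at least 1 log2 unit, those most like each of the 9 were named by the correlation of their 8 group means. For Fbxo15 they were the collagen gene Col1a2 (r = 0.995) and Cpq (0.993), for Lin28a the Nodal and BMP inhibitor Cer1 (0.96) and Pim2 (0.952), and for Utf1 Trh (0.968) and Dab1 (0.965). Sox2 was closest to Lrrc34 (0.955) and B3gnt2 (0.942), Pou5f1 to Ell3 (0.898) and Kcnip2 (0.876), and Dppa5a to Klhdc9 (0.955) and Hacl1 (0.951). Dppa2 was closest to Zc3h12b (0.969) and Ksr1 (0.948), Dppa4 to Hmgb2 (0.968) and 5430401F13Rik (0.967), and Sall4 to BC002059 (0.996) and 1110032A03Rik (0.996). Without the 2 siSCR groups that stood apart, the 6 remaining groups gave Dppa4 and Hmgb2 0.819, the lowest of these pairs, and Fbxo15 and Cpq 0.999. These are descriptions over 8 points of one platform.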

How the data were processed

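Total RNA of 24 samples, 8 groups of 3, was labelled from 300 ng and measured on Affymetrix arrays, per the labels' protocols. The table deposited by the authors holds log2 values, a base inferred from their span of 2.14 to 14.55. The probe summary, normalisation and genome build are not given in the sources used here, and detection calls were not used here, so no limit was set for dim genes. Of 35556 probe sets, 21789 had 1 symbol, 1621 several and 12146 none, and 999 genes had more than 1 set, of which the brightest was kept (19938 genes). Sets matched to the mouse gene table by gene ID numbered 21698, and 0 symbols were updated.

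limma 3.58.1 in R 4.3.3 fitted 8 group means to all 24 arrays (16 residual degrees of freedom, median standard error 0.0932 between groups), with Benjamini-Hochberg adjustment over all genes of a comparison. Tested on simulated data for the undifferentiated knockdown over 19938 genes, it recovered 84.4% of 1.5-fold and 98.2% of 2-fold changes. Of its calls, 4.79% were false. Called differences of the 9 genes in that comparison were smaller than 1.5-fold by the probe sets used. Recovery at those sizes was not tested. The 9 genes were named in every comparison, with Prmt1, up to 3 called members of each other list by largest change, and the 2 most correlated genes of each. The genes and lists were chosen with earlier results of these data known. The labels do not say whether replicate numbers pair the samples, and the main fit left pairing out. Of 28 pairs of groups, 1 had all 3 correlations of same-numbered deviations over 0.1 (range -0.5 to 0.61). Such a count cannot settle whether some groups were paired. Alternatives were a replicate block, quantile normalization, median centring, scaling to one SD, a filter on the dimmest 25% of genes, the mean of probe sets, a trend and robust prior, array weights, only the groups compared, the 18 other arrays, and leaving out each array. Promoter windows came from RefSeq on GRCm38.p6.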

Additional observations from a re-analysis of the deposited data

Results flagged for a closer look

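For 5 of the 9 genes the change from undifferentiated cells to day 4 embryoid bodies differed between siPRMT1 and siSCR by limma's interaction test: Sox2 by -0.36, Sall4 by 0.26, Dppa2 by 0.31, Dppa5a by -0.45 and Lin28a by 0.34 on the log2 scale. Each group had 3 arrays, and 23.8% of all genes were called in the same test. Prmt1 was called in it too (0.74 ± 0.087), so the depth of the knockdown also differed between the 2 states. Dppa2 gave 0.92 by its second probe set, against 0.31.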

How the results depend on the processing

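The 9 genes in 12 comparisons gave 108 values. A value was counted as unchanged when its call stayed on its side and, if called, it kept its direction. A change of sign in a value that stayed uncalled was not counted. Unchanged were 107 with a replicate block, 108 with the mean of probe sets, 99 after quantile normalization, 92 after median centring and 77 after scaling to one SD. Array weights left 95 unchanged, a trend and robust prior 95, only the groups compared 99 and a filter on the dimmest 25% of genes 104. The replicate block changed 1 call, Sall4 at day 4 (0.12, limma adjusted p = 0.0607), and the labels do not say whether replicate numbers pair the samples. Signs of called values turned for Dppa2 with one-SD scaling in the knockdown with DMSO (-0.06) and ATRA (-0.49) and in vehicle against untreated siSCR (0.01), and for Lin28a in the knockdown with ATRA (-0.06 with one-SD scaling, -0.07 after quantile normalization). Values not called in the main analysis were called with the opposite sign under one-SD scaling for Utf1 (-0.39 with DMSO, -0.42 with ATRA, 0.34 for vehicle in siSCR) and Pou5f1 (-0.51 with DMSO, 0.45 for vehicle in siSCR).

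Array weights gave 7218 called genes for the knockdown in undifferentiated cells (3747 in the main analysis), 6106 at day 4 (3669), 8969 for aggregation in siSCR (5632), 7688 for the interaction (4754), 1567 and 7640 for ATRA in siSCR (4663) and siPRMT1 (2391), and 2536 for vehicle in siPRMT1 (92). They called 8 of the 9 genes for the aggregation interaction in place of 5 and 1 for vehicle in siPRMT1 in place of 0. With only the groups compared, 3 of the 9 were called in undifferentiated cells in place of 6, 544 genes and 1 of the 9 for ATRA in siSCR, and 135 genes for the ATRA interaction (646). Median centring called 5 of the 9 for ATRA in siSCR in place of 3. Scaling to one SD called 1 for the ATRA interaction, 8 for vehicle in siSCR in place of 5, and 56 genes for vehicle in siPRMT1. The trend and robust prior called 1 of the 9 for the ATRA interaction and 145 genes for vehicle in siPRMT1. Without the 6 siSCR arrays, vehicle in siPRMT1 had 286 called genes and 1 of the 9. The cause of these shifts was not tested.

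Leaving out 1 array gave 2 to 4 of the 9 at day 4, 304 to 897 genes and 0 to 1 of the 9 for the ATRA interaction, and 29 to 36 genes for vehicle in siPRMT1. Of 756 values without 1 array, 715 kept their call, 32 lost it and 9 gained it.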
